A study of Mus musculus with 4 samples.

Results

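Integrin genes grouped for fibronectin binding or activation of latent transforming growth factor beta (TGF-β) were measured. The cells were stem cells of mouse skin squamous cell carcinoma (SCC). Itga2, which encodes part of a collagen and laminin receptor, was included. The set was named gene by gene and holds Itgb1, Itga2, Itga5, Itga9, Itgav, Itgb3, Itgb5, Itgb6 and Itgb8, 9 of the 20039 genes with a value above 0 in any library. They were not chosen by a cut on measured values, but earlier results of these data were known. All 9 were above 0 in every library, and 7 passed the minimum of 1 FPKM (fragments scaled to transcript length and library size) in at least 2 libraries. Itgb8 passed through its reporter negative libraries alone. Itga9 and Itgb3 stayed below the minimum and are given as values without a test.

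The reporter positive group had 2 libraries from cells labelled as having TGF-β signalling and mCherry fluorescence, and the reporter negative group had 2 libraries from cells labelled as lacking the signal. Each of experiments 1 and 2 gave 1 library of each group. Every library came from the same background: primary skin SCCs derived from epidermis, strain C57BL/6 X FBV, genotype TetO-Hras with LV-rtTA3-TGF-beta reporter. No treatment is given in the labels. TetO is a promoter that the rtTA3 activator switches on in the presence of a tetracycline, and Hras is an oncogene of skin tumours. The labels leave out the age of the mice, how many mice stand behind a library and the promoter that drives rtTA3. The cells of both groups were lineage negative and were gated on integrin α6 and CD44, so an integrin subunit was part of the sort. mRNA libraries held 3.55 and 3.29 gigabases of aligned sequence in reporter positive cells of experiments 1 and 2, and 3.13 and 3.75 gigabases in reporter negative cells. The keratinocyte markers Trp63, Cdh1 and Epcam, 3 of the 6 listed, were present throughout (25.5 to 128 FPKM), and the other 3, all keratins, were not analysed here. Trp63 had 72.0 and 73.8 FPKM in reporter positive libraries, against 102 and 128 FPKM in reporter negative libraries. Epcam had 29.4 and 25.5 FPKM in reporter positive libraries, against 45.9 and 51.0 FPKM in reporter negative libraries. Neither overlapped, whereas Cdh1 did (78.5 and 92.5 FPKM in reporter positive libraries, against 61.7 and 84.3 FPKM in reporter negative libraries). Of the genes of the sort, Cd44 stood at 88.0 and 128 FPKM in reporter positive libraries, against 81.5 and 112 FPKM in reporter negative libraries, with overlapping groups.

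Integrins are surface receptors built of 1 α and 1 β chain that tie the extracellular matrix to the actin skeleton. The β1 chain pairs with many α chains, among them α2 (a collagen and laminin receptor), α5 (the classical fibronectin receptor) and α9 (a receptor for tenascin and for the EDA segment of fibronectin). The αv chain pairs with β1, β3, β5, β6 or β8, receptors that recognise the RGD motif of fibronectin, vitronectin and the latency peptide of TGF-β. TGF-β is secreted bound to that peptide, and αvβ6 and αvβ8 are its best known activators in epithelia and at epithelial borders. αvβ6 is scarce in resting epidermis and is known from wound edges and squamous carcinomas.

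In reporter positive cells 8 of the 9 integrin genes were lower than in reporter negative cells in both experiments, but none of the 7 tested genes passed an adjusted p of 0.05 when the 4 libraries were treated as unpaired. The test was limma on log2(FPKM + 1) with Benjamini-Hochberg adjustment over 11972 genes, of which 645 (5.39%) passed, 325 of them lower (2.71%) and 320 higher (2.67%). Without adjustment 4 of the 7, Itgb1, Itga2, Itgb5 and Itgb6, had p under 0.05 and were lower, against 18.3% of all genes tested. The reporter positive libraries lay wholly below the reporter negative ones for 6 of the 7, and 42.7% of all genes did so. Of all genes tested 54.3% were lower in both experiments, and 6 of the 7 integrin genes were. Itgb8 is among the 6 in both counts and enters the median below. It came into the test through the group where it is high, so it adds no support to them. The median change of the 7 was -0.58, reporter positive minus reporter negative in log2(FPKM + 1), beside -0.18 over all genes tested. Median-of-ratios scaling, which sets the typical gene equal between libraries, put these medians at -0.36 and 0.03, and it called 473 genes higher and 210 lower. In bulk RNA, fewer cells with an integrin and less integrin RNA per cell cannot be told apart.

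With the experiment number as a block 1 of the 7, Itgb1, passed (adjusted p = 0.0426 by limma), and 7.41% of all genes passed as lower. When genes listed at exactly 0 in any library were also left out, Itgb1, Itga2, Itgav and Itgb5 passed as lower, and 20.6% of the genes then tested did. Itgb8 passed there too, but it had entered the test through the group where it is high, and its call supports nothing. Leaving out those genes without the block called none of the 7, where 11.0% of all genes passed. The integrin genes themselves had the same values in each of these fits.

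**Figure D1:**
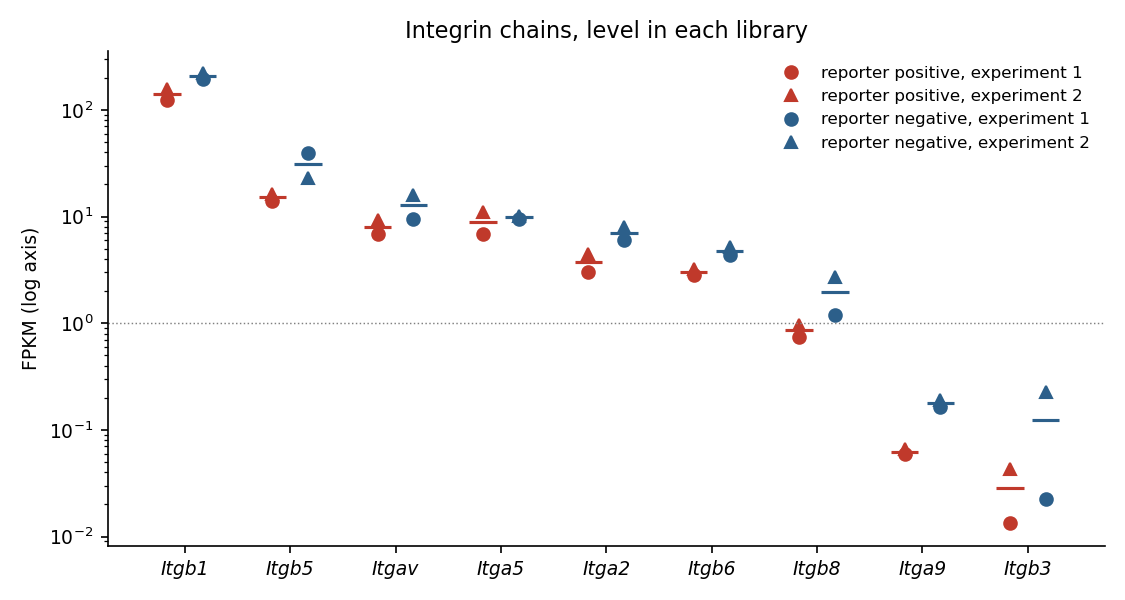
FPKM (log axis) of the 9 integrin genes in each of the 4 libraries, reporter positive (red) left of reporter negative (blue), circles for experiment 1 and triangles for experiment 2, with bars for the mean of each group and a dotted line at 1 FPKM. Itgb1 stands above all others at 123 to 221 FPKM, Itga9 and Itgb3 lie below 0.3 FPKM in every library, and the groups overlap only for Itga5 and Itgb3.

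Itgb1, the chain shared by most matrix receptors of keratinocytes, had 123 and 157 FPKM in reporter positive libraries of experiments 1 and 2, against 193 and 221 FPKM in reporter negative libraries. The lower reporter positive value was that of experiment 1, as was the lower reporter negative value, and the groups did not overlap. Means were 140 ± 23.9 FPKM in reporter positive cells and 207 ± 19.7 FPKM in reporter negative cells (SD, n = 2 each), a ratio of 0.677. The change was -0.57 ± 0.18 (SE), with a 95% interval of -1.03 to -0.10 and an adjusted p of 0.140 by limma. Itgb1 (ENSMUSG00000025809, chr8:131209554-131257100, plus strand, mm9) was by far the most abundant of the 9 and exceeded 94.7% of all tested genes in mean FPKM. All of its FPKM in every library sat on 1 annotated transcript, ENSMUST00000090006, of 16 exons and 3815 bases. The annotated transcript ENSMUST00000004192, which holds an exon of 75 bases that the first lacks, was listed at 0 in every library.

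Itga2, the α chain of a collagen receptor that pairs with β1, had 3.03 and 4.42 FPKM in reporter positive libraries, against 6.09 and 7.92 FPKM in reporter negative libraries. Both reporter positive values were below both reporter negative values, with means of 3.72 ± 0.983 FPKM in reporter positive cells and 7.0 ± 1.30 FPKM in reporter negative cells (SD, n = 2 each), a ratio of 0.531. The change was -0.77 ± 0.25 (SE; 95% interval -1.41 to -0.13; adjusted p = 0.142 by limma). Itga2 (ENSMUSG00000015533, chr13:115626124-115722249, minus strand, mm9) has a single annotated transcript, listed at 0 in every library. Its reads were given to assembled forms that ran 2829 to 2833 bases past the annotated 3′ end. In the reporter negative library of experiment 1 such a form of 30 exons shared 29 with the annotation. A gene sum over annotated transcripts alone therefore gave Itga2 no value.

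Itga5, the α chain of the main fibronectin receptor, did not separate the groups. It had 6.81 and 11.1 FPKM in reporter positive libraries, against 9.53 and 10.1 FPKM in reporter negative libraries. The reporter positive libraries held both the lowest and the highest value, with means of 8.94 ± 3.02 FPKM in reporter positive cells and 9.83 ± 0.425 FPKM in reporter negative cells (SD, n = 2 each). The change was -0.43 in experiment 1 and 0.12 in experiment 2, and -0.16 ± 0.26 (SE) over both. Its 95% interval ran from -0.83 to 0.51 (adjusted p = 0.746 by limma), so neither a fall near that of Itgb1 nor a modest rise lies outside it. The 11.1 FPKM of experiment 2 included 3.28 FPKM of an assembled form of 2057 bases over 8 exons at the 3′ end. With 7.80 FPKM on the annotated transcript ENSMUST00000023128 alone, that library too lay below both reporter negative libraries. The sign was positive with median-of-ratios scaling (0.06) and without reporter positive replicate 1 (0.16). Itga5 (ENSMUSG00000000555) lies at chr15:103174720-103197194 on the minus strand (mm9).

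Itga9 was close to absent. It had 0.0589 and 0.0664 FPKM in reporter positive libraries, against 0.163 and 0.193 FPKM in reporter negative libraries. The groups did not overlap, but every value was under 0.2 FPKM. In the reporter positive library of experiment 1 most of it was the annotated transcript ENSMUST00000125021 of 650 bases, whose deposited lower bound was 0. Itga9 (ENSMUSG00000039115, chr9:118515808-118810121, plus strand, mm9) was not tested.

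Itgav, the α chain of the TGF-β-activating receptors, had 6.81 and 9.31 FPKM in reporter positive libraries, against 9.52 and 16.1 FPKM in reporter negative libraries. The groups did not overlap, but the reporter positive library of experiment 2 and the reporter negative library of experiment 1 were nearly level. Means were 8.06 ± 1.77 FPKM in reporter positive cells and 12.8 ± 4.64 FPKM in reporter negative cells (SD, n = 2 each), a ratio of 0.630. The change was -0.58 ± 0.30 (SE; 95% interval -1.36 to 0.20; adjusted p = 0.297 by limma). The 16.1 FPKM included 6.15 FPKM of a single-exon form of 3751 bases at the 3′ end, assembled in that library alone. Weighting each form by its length, an alternative added after the values were seen, gave 6.62 and 9.10 FPKM in reporter positive libraries, against 9.16 and 12.9 FPKM in reporter negative libraries. Itgav (ENSMUSG00000027087) lies at chr2:83564554-83647073 on the plus strand (mm9).

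Among the β partners of αv other than β1, Itgb5 was the most abundant in every library. It had 14.1 and 16.3 FPKM in reporter positive libraries, against 39.3 and 23.0 FPKM in reporter negative libraries. The reporter positive libraries were close together and below both reporter negative ones, which differed widely. Means were 15.2 ± 1.56 FPKM in reporter positive cells and 31.2 ± 11.5 FPKM in reporter negative cells (SD, n = 2 each), and the change was -0.94 ± 0.28 (SE; 95% interval -1.67 to -0.21; adjusted p = 0.126 by limma). The 39.3 FPKM held 23.8 FPKM of an assembled form of 781 bases over 3 exons at the 3′ end, beside 15.5 FPKM of the annotated 15-exon transcript ENSMUST00000115028. Weighted by length, Itgb5 had 14.1 and 16.3 FPKM in reporter positive libraries, against 21.5 and 23.0 FPKM in reporter negative libraries, still with no overlap. The change then was -0.52, and it was -0.45 over annotated transcripts. Itgb5 (ENSMUSG00000022817, chr16:33829751-33949239, plus strand, mm9) encodes the β chain of a vitronectin receptor of epithelial cells.

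Itgb6, whose product is made almost only in epithelia, had 2.82 and 3.22 FPKM in reporter positive libraries, against 4.38 and 5.19 FPKM in reporter negative libraries. Each group was tight and the groups did not overlap. Means were 3.02 ± 0.280 FPKM in reporter positive cells and 4.79 ± 0.572 FPKM in reporter negative cells (SD, n = 2 each), a ratio of 0.631. The change was -0.52 ± 0.20 (SE; 95% interval -1.03 to -0.01; adjusted p = 0.185 by limma). The change was alike in experiments 1 and 2, at -0.49 and -0.55. Itgb6 (ENSMUSG00000026971) lies at chr2:60436349-60560700 on the minus strand (mm9).

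The gene has annotated starts at an outer and an inner site. Between them begin 2 short annotated transcripts, ENSMUST00000147906 and ENSMUST00000142696 (236 and 730 bases), listed at 0 in every library. All 10 forms of Itgb6 above 0, over the 4 libraries, began close to the inner start or further inside the gene. Of these forms 9 began 48889 to 48932 bases downstream of the outer start, and 1 short form began 54099 bases downstream. The 2 annotated transcripts from the outer start were listed at 0 in every library, with a deposited upper bound of at most 0.0267 FPKM. None of the Itgb6 forms above 0 began near the outer start. The window of 250 bases before to 50 bases after the outer and the inner start is shown, from RefSeq on GRCm38.p6. The outer window is chr2:60722554-60722853 and the inner window chr2:60673644-60673943, both on the minus strand. Capitals mark CAGAC or its reverse GTCTG, the core SMAD-binding element, in the outer window, and TATAA or its reverse TTATA in the inner window.
Itgb6 outer start: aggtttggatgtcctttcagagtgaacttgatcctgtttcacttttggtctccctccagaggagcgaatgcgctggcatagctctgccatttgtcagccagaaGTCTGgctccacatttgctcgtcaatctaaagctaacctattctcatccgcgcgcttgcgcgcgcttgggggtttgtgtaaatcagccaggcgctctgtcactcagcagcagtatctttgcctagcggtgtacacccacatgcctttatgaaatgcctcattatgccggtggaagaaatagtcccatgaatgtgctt
Itgb6 inner start: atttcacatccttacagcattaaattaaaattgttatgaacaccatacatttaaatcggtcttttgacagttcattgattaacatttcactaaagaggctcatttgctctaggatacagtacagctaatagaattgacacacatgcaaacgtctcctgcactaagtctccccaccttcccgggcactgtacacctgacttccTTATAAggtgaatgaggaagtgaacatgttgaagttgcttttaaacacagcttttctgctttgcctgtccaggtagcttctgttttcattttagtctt
The inner window, matched through the annotated transcripts that start there, holds 2 overlapping matches to TATAA or TTATA. The first begins 48 bases before the RefSeq start, and the starts of the assembled forms were not used for this distance. A match to TATAA or TTATA was present in 24.9% of 32851 promoter windows of this length. The inner window holds no match to CAGAC or GTCTG. The outer window, whose annotated transcripts were listed at 0, holds 1, and 49.6% of all windows held such a match. Neither window matched TGANTCA, the AP-1 motif (7.81% of all windows), or GGGCGG and its reverse CCGCCC, an Sp1 motif (35.7%). Both strands were searched. Base composition differed, with 38.3% G and C in the inner window and 50.3% in the outer one.

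An assembled Itgb6 form of 16 exons and 4729 bases had identical exons in all 4 libraries. It had 1.08 and 1.42 FPKM in reporter positive libraries, against 3.07 and 3.81 FPKM in reporter negative libraries. The reporter positive values were less than the reporter negative ones by more than for the gene sum. With the most abundant form of each library standing for the gene, the change of Itgb6 was -0.93 (adjusted p = 0.112 by limma). In the reporter positive library of experiment 1 that was another form, of 9 exons and 1727 bases (1.23 FPKM). The 16-exon form differs from the annotated 15-exon transcript ENSMUST00000059888 at its 5′ end. There it begins 43 bases earlier with an exon of 157 bases and splices out the next 120 bases. That earlier start is itself annotated, for the 6-exon transcript ENSMUST00000151035, which was listed at 0 in every library. ENSMUST00000059888, which keeps those 120 bases within its first exon, had 0.510 and 0.658 FPKM in reporter positive libraries and was listed at 0 in both reporter negative libraries. A further annotated form, ENSMUST00000154764, had 1.14 FPKM in the reporter positive library of experiment 2 and was listed at 0 in the other 3. Assembly was run per library, so how the FPKM of Itgb6 is divided between forms can differ for that reason, and this was not tested.

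**Figure D2:**
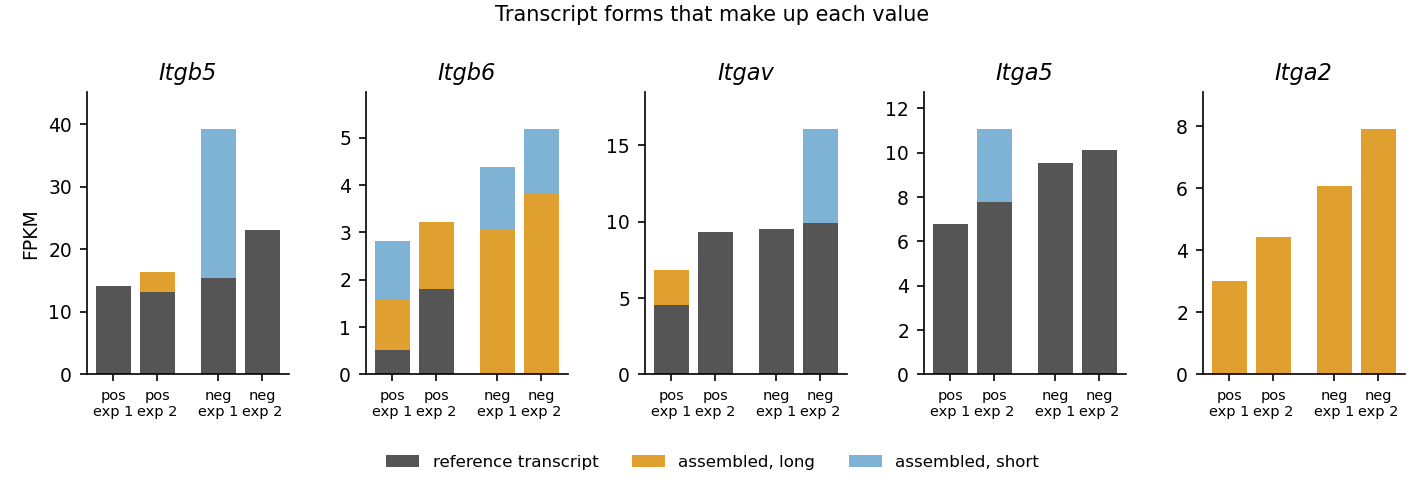
FPKM of Itgb5, Itgb6, Itgav, Itga5 and Itga2 by kind of transcript (annotated, or assembled and over or under 75% of the longest form in length) in each library, with reporter positive bars left of reporter negative ones. A short assembled form makes up 23.8 of the 39.3 FPKM of Itgb5 in the reporter negative library of experiment 1, and annotated transcripts of Itgb6 appear only in the reporter positive libraries.

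Itgb8, the other activating β chain, was low. It had 0.744 and 0.969 FPKM in reporter positive libraries, against 1.19 and 2.74 FPKM in reporter negative libraries. Deposited 95% bounds were 0.638 to 0.846 and 0.843 to 1.09 FPKM in reporter positive libraries, against 1.05 to 1.33 and 2.52 to 2.96 FPKM in reporter negative libraries, so the reporter negative libraries differed from each other by more than counting error. Means were 0.856 ± 0.159 FPKM in reporter positive cells and 1.96 ± 1.1 FPKM in reporter negative cells (SD, n = 2 each), with a change of -0.63 ± 0.32 (SE; 95% interval -1.44 to 0.19; adjusted p = 0.284 by limma). All of it sat on 1 annotated transcript, ENSMUST00000026360. Itgb8 (ENSMUSG00000025321) lies at chr12:120396495-120477275 on the minus strand (mm9).

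Itgb3, the β chain of the vitronectin receptor of platelets, osteoclasts and vessels, had 0.0134 and 0.0433 FPKM in reporter positive libraries, against 0.0227 and 0.224 FPKM in reporter negative libraries. The groups overlapped, and the highest value was that of the reporter negative library of experiment 2. Itgb3 (ENSMUSG00000020689, chr11:104469314-104531790, plus strand, mm9) was not tested.

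The order of the levels was nearly the same in both groups. In reporter positive cells Itgb1 was followed by Itgb5, Itga5, Itgav, Itga2, Itgb6, Itgb8, Itga9 and Itgb3, and in reporter negative cells Itgav stood before Itga5. Itga5 and Itgav overlapped in both groups, Itga2 and Itgb6 overlapped in reporter positive cells and Itga9 and Itgb3 in reporter negative cells. All other neighbours in the order were apart in every library of the group.

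**Figure D3:**
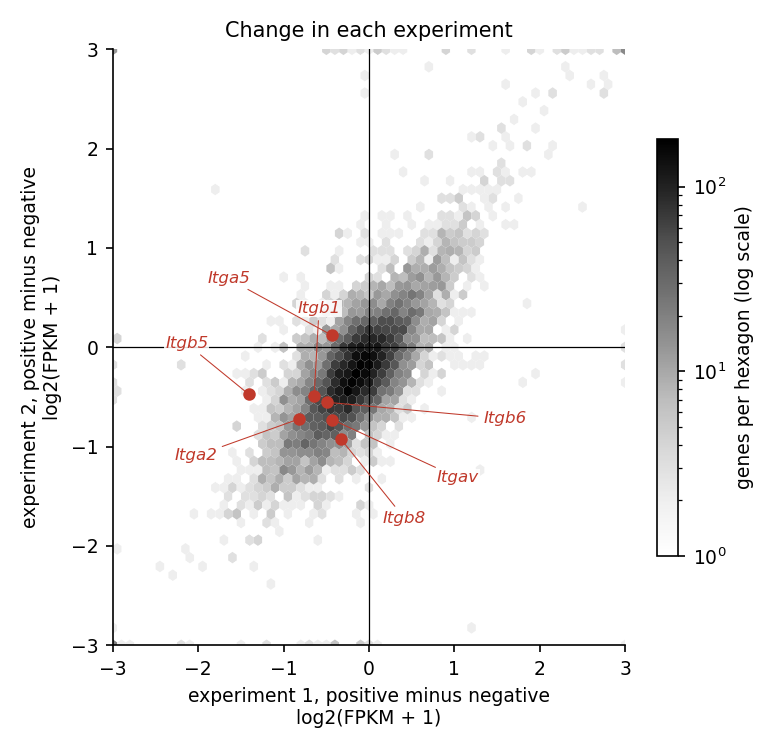
Change of each tested gene, reporter positive minus reporter negative in log2(FPKM + 1), in experiment 1 (horizontal) and experiment 2 (vertical), with grey hexagons for all 11972 genes (values beyond 3 in either direction drawn at the edge) and red points for the 7 tested integrin genes. Except for Itga5 (-0.43 and 0.12), the integrin genes lie in the quadrant that is lower in both experiments, which holds 54.3% of all genes. Itgb8 entered the test through its reporter negative libraries alone.

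The makeup of the αv partners depended on how transcript forms were added up. Of the summed FPKM of the 5 β chains that pair with αv, Itgb1 made up 87.4% and 88.4% in reporter positive libraries, against 81.1% and 87.6% in reporter negative libraries. Since β1 also pairs with many other α chains, the partners were also compared without it. Itgb5 then made up 79.8% and 79.4% in reporter positive libraries, against 87.5% and 73.9% in reporter negative libraries. The reporter positive values lay between the reporter negative ones. Itgb6 made up 15.9% and 15.6% in reporter positive libraries, against 9.77% and 16.6% in reporter negative libraries, again within their range. Itgb8 made up 4.20% and 4.71% in reporter positive libraries, against 2.65% and 8.78% in reporter negative libraries. The reporter negative library of experiment 1 takes its Itgb5 share from a sum that includes the 781-base form. Weighted by length, Itgb5 made up 83.6% and 81.7% in reporter positive libraries, against 80.7% and 75.7% in reporter negative libraries, and the groups did not overlap. Itgb6 then made up 11.9% and 13.2% in reporter positive libraries, against 14.8% and 14.6% in reporter negative libraries, also without overlap. The length-weighted share of Itgb8 overlapped, at 4.40% and 4.87% in reporter positive libraries, against 4.47% and 9.0% in reporter negative libraries. These shares were not tested, since 2 against 2 libraries cannot give an exact permutation p below 0.333.

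On the FPKM scale, Itgb1 was higher relative to the sum of its α partners, which was mostly Itga6, in both reporter positive libraries. Relative to Itga5 it was lower in both. Itgb1 over the summed FPKM of 11 α chains that pair with it was 0.465 and 0.539 in reporter positive libraries, against 0.428 and 0.406 in reporter negative libraries. The groups did not overlap, and the ratio was not tested. Itga6 was lower by more than Itgb1 (ratios of group means 0.520 and 0.677). A ratio to a sum that is mostly Itga6 therefore does not show Itgb1 higher relative to the other α chains. Itga6, whose product was part of the sort, made up most of that sum, with 68.3% and 70.3% in reporter positive libraries, against 73.5% and 75.5% in reporter negative libraries. Itga5 made up 2.57% and 3.8% of it in reporter positive libraries, against 2.11% and 1.86% in reporter negative libraries. Its part of the α sum was thus higher where its own level was not. Itgb1 over Itga5 was 18.1 and 14.2 in reporter positive libraries, against 20.2 and 21.8 in reporter negative libraries. That ratio was without overlap also when weighted by length, and it was not tested. Itgb6 over Itgav was 0.415 and 0.345 in reporter positive libraries, against 0.460 and 0.323 in reporter negative libraries, with overlap. Weighted by length it was 0.305 and 0.289 in reporter positive libraries, against 0.430 and 0.344 in reporter negative libraries, without overlap. Itgb8 over Itgav was 0.109 and 0.104 in reporter positive libraries, against 0.125 and 0.170 in reporter negative libraries, and it was without overlap also when weighted by length (0.112 and 0.106 in reporter positive libraries, against 0.130 and 0.212 in reporter negative libraries). Itgb5 over Itgb6 was 5.01 and 5.08 in reporter positive libraries, against 8.96 and 4.44 in reporter negative libraries. Weighted by length it was 7.01 and 6.19 in reporter positive libraries, against 5.45 and 5.2 in reporter negative libraries, without overlap.

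Over the 4 libraries, the genes with the pattern most like Itgb1 were Dcaf6, Naprt and Zfp948, at distances of 0.0296, 0.0432 and 0.0443 from its centred log2(FPKM + 1) values. Those most like Itgb6 were Gabpa, Pcgf6 and Dtnbp1, at distances of 0.0182, 0.0274 and 0.0348. The distances were ranked over 7302 genes, and with 4 libraries many genes share a pattern.

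Of 11 other integrin chains 10 had a value and 6 were tested. Itgb7, the β chain of lymphocyte homing receptors, was the 1 past the threshold, with 3.13 and 4.29 FPKM in reporter positive libraries and a listed value of 0 in both reporter negative ones. It entered the test through the group where it is high and a listed 0 can be a failed estimate, so its call supports nothing and no fold is given. The hemidesmosome chains Itga6 and Itgb4, which anchor basal keratinocytes, did not pass (adjusted p = 0.0549 and 0.0756 by limma) and passed with the experiment as a block (0.0157 and 0.0278). Itga6 had 181 and 205 FPKM in reporter positive libraries, against 331 and 410 FPKM in reporter negative libraries. Itgb4 had 54.1 and 59.0 FPKM in reporter positive libraries, against 87.4 and 116 FPKM in reporter negative libraries. Both were without overlap, and the median change of the 6 was -0.70. The ratio of both groups' means was 0.520 for Itga6 and 0.557 for Itgb4, beside 0.677 for Itgb1, and the difference between these genes was not tested.

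Of 16 matrix ligands of these receptors 8 were tested, and 4 passed as lower, none as higher and 4 did not pass, beside 2.71% of all genes lower. Ccn2, one of the 4, entered the test through its reporter negative libraries alone, so its call adds no support. The median change was -0.96. Acta2, a pericyte and muscle marker, was lower too, at 11 and 11.1 FPKM in reporter positive libraries, against 25.7 and 22.7 FPKM in reporter negative libraries, and its part in the ligand values was not tested. Postn, which encodes the αv ligand periostin, had 4.78 and 11 FPKM in reporter positive libraries, against 89.7 and 191 FPKM in reporter negative libraries, a change of -3.99 ± 0.50 (SE; adjusted p = 0.0274 by limma). Thbs1, which encodes thrombospondin-1, an activator of latent TGF-β that does not act as an integrin, had 6.29 and 8.14 FPKM in reporter positive libraries, against 27.3 and 41.1 FPKM in reporter negative libraries (change -2.08; adjusted p = 0.0262 by limma). Tgfbi, a secreted RGD protein named for its induction by TGF-β, had 152 and 176 FPKM in reporter positive libraries, against 333 and 367 FPKM in reporter negative libraries (change -1.09; adjusted p = 0.0345 by limma). Ccn2, also a TGF-β target in many cells, had 0.451 and 0.919 FPKM in reporter positive libraries, against 3.90 and 5.24 FPKM in reporter negative libraries (change -1.73). In each of these 4 genes the reporter positive values lay below the reporter negative ones. Fn1, which encodes fibronectin itself, was too low to be tested, with 0.366 and 0.966 FPKM in reporter positive libraries, against 0.825 and 2.24 FPKM in reporter negative libraries.

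Of 15 genes of latent TGF-β and its activators 14 were tested, and 1 fell, none rose and 13 did not pass, beside 2.71% of all genes lower. The one that fell was Tgfb3, a TGF-β isoform whose latency peptide holds an RGD motif. It had 3.70 and 3.77 FPKM in reporter positive libraries, against 9.99 and 13.5 FPKM in reporter negative libraries (change -1.42; adjusted p = 0.0373 by limma). Tgfb1, the isoform that αvβ6 and αvβ8 are best known to release, had 17.2 and 17.7 FPKM in reporter positive libraries, against 28 and 26.4 FPKM in reporter negative libraries, without overlap (adjusted p = 0.0789 by limma). Ltbp1, which ties the latent complex to the matrix so that integrins can pull on it, had 10.3 and 10.5 FPKM in reporter positive libraries, against 19.7 and 16.6 FPKM in reporter negative libraries, also without overlap (adjusted p = 0.0756 by limma). The median change of the 14 was -0.68, and 5 passed as lower with the experiment as a block, where 7.41% of all genes did. Tgfb2, 1 of the 5, entered the test through its reporter negative libraries alone, so its call adds no support.

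Of 27 adaptors of integrin tails 25 were tested, and none passed the limma test. Their median change was -0.29, near that of all genes. With the experiment as a block 4 passed as lower, beside 7.41% of all genes, and 1, Ptk2, as higher. Ptk2, which encodes focal adhesion kinase, had 26.7 and 32.7 FPKM in reporter positive libraries, against 11.3 and 15.5 FPKM in reporter negative libraries (change 1.10; adjusted p = 0.0578 by limma, 0.0189 with the block). Tns3, which encodes the focal adhesion protein tensin 3, had 2.68 and 2.83 FPKM in reporter positive libraries, against 6.01 and 7.12 FPKM in reporter negative libraries (change -1.01; adjusted p = 0.0558 by limma, 0.0388 with the block). Vcl, which encodes vinculin, was listed at 0 in 1 library of each group and above 30 FPKM in the other.

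**Figure D4:**
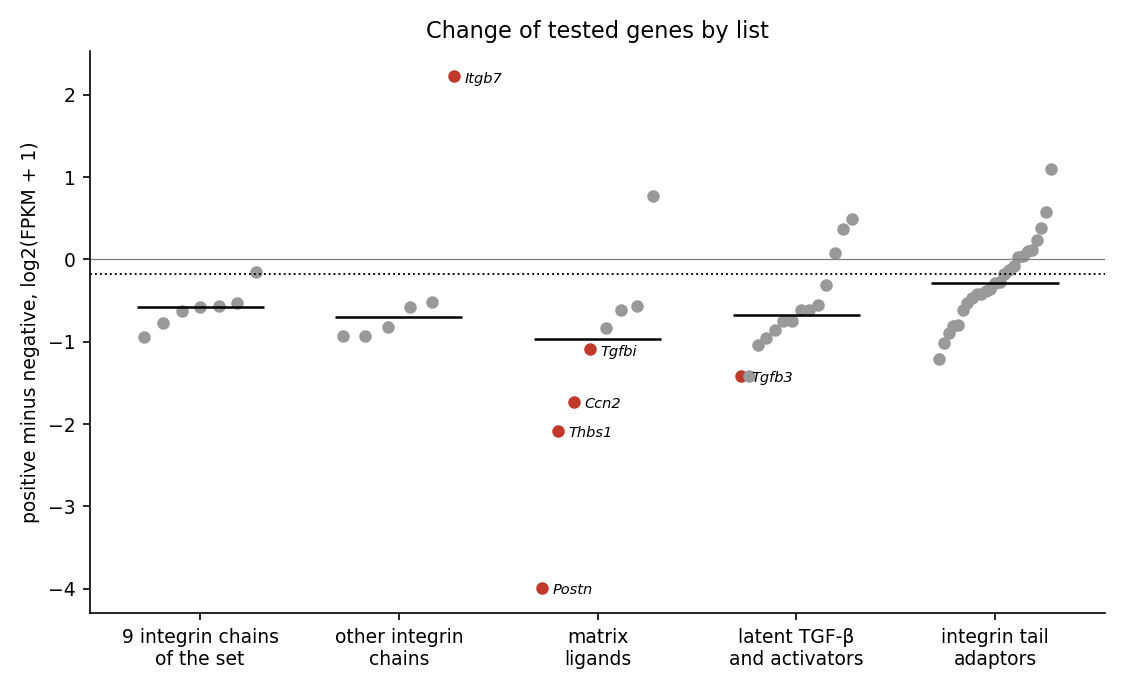
Change of each tested gene, reporter positive minus reporter negative in log2(FPKM + 1), for the integrin set and the 4 lists around it. Red points are genes past an adjusted p of 0.05, bars are list medians (-0.58, -0.70, -0.96, -0.68 and -0.29 from left to right) and the dotted line is the median of all genes, -0.18.

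Markers of other cell types summed to less than the keratinocyte markers. Both kinds of marker differed between libraries, and their part in the integrin values was not tested. The 8 fibroblast markers, all with a value and 3 of them under 1 FPKM in every library, summed to 12.9 and 27.7 FPKM in reporter positive libraries, against 27.4 and 41.7 FPKM in reporter negative libraries. The 4 pericyte and muscle markers summed to 11.8 and 12.4 FPKM in reporter positive libraries, against 29.1 and 28.1 FPKM in reporter negative libraries, mostly Acta2, which fell (adjusted p = 0.0350 by limma). The 5 endothelial markers summed to 2.82 and 2.90 FPKM in reporter positive libraries, against 4.72 and 10.7 FPKM in reporter negative libraries. The endothelial sum and Itgb3, an integrin of vessels, were both highest in the reporter negative library of experiment 2, as were Itgb1, Itga2, Itga9, Itgav, Itgb6 and Itgb8. The 8 leukocyte markers summed to 4.85 and 7.20 FPKM in reporter positive libraries, against 3.47 and 3.21 FPKM in reporter negative libraries, and 7 of the 8 were under 1 FPKM throughout. Of 5 platelet markers 3 had a value, and they summed to 5.36 and 5.86 FPKM in reporter positive libraries, against 4.18 and 3.35 FPKM in reporter negative libraries. Of these Ppbp passed as higher, with 4.39 and 4.23 FPKM in reporter positive libraries, against 1.22 and 0.499 FPKM in reporter negative libraries (adjusted p = 0.0470 by limma), and Itga2b had 0.630 and 0.903 FPKM in reporter positive libraries, against 2.50 and 2.20 FPKM in reporter negative libraries (adjusted p = 0.0756). A gene at 0 in all 4 libraries was given no value, so these lists cannot show a marker absent throughout.

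**Figure D5:**
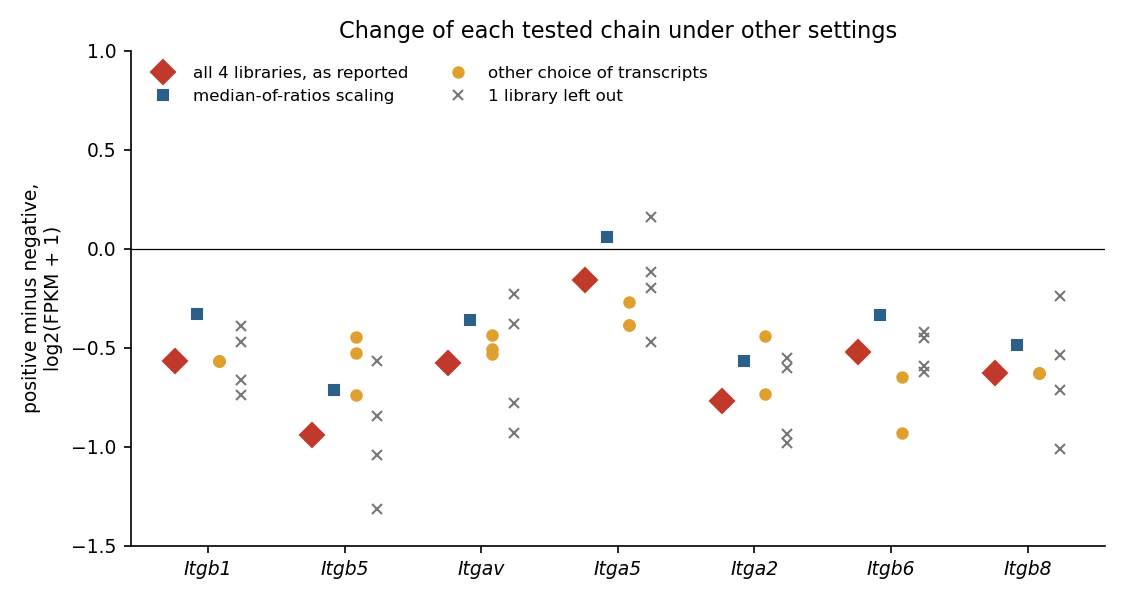
Change of the 7 tested integrin genes, reporter positive minus reporter negative in log2(FPKM + 1), with all 4 libraries (red diamonds), after median-of-ratios scaling (blue squares), with another choice of transcripts (orange circles) and with 1 library left out (grey crosses). Except for Itga5, which reached 0.06 and 0.16, every point drawn lies below 0.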

How the data were processed

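RNA from 4 sorted cell fractions was made into Illumina mRNA libraries, per the labels' protocols, and grouped by the reporter state in the titles, which also give the experiment number. The authors aligned reads with TopHat and assembled and quantified transcripts with Cufflinks on mm9, per the submitters' processing notes; their versions and settings are not recorded there. The deposited tables give each transcript's FPKM with 95% bounds and its coverage, per the attribute names in the files. FPKM is not a count, so no count model was used; depth was recovered as coverage over FPKM, and read length is unknown.

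With Python 3.11.15, pandas 2.3.3 and bedtools 2.31.1, FPKM was summed per gene over annotated and assembled transcripts of at least 200 exonic bases; shorter ones carried 95.1% to 98.9% of deposited FPKM. Of 96718 annotated transcripts 84041 got gene names by identifier from GENCODE M21, which otherwise served to match Itgb6 transcripts to promoter starts, and 5137 by the gene identifier in the files; the others, and every assembled form, were placed in the gene whose exons covered 50% or more of their length. Genes that reached 1 FPKM in 2 or more libraries entered the test, limma 3.58.1 (lmFit, eBayes with trend) under R 4.3.3, on log2(FPKM + 1), two-sided, with adjustment over all 11972 genes, and the code was tested on simulated data. A change on this scale understates that of low genes. The labels do not tie the experiments to separate animals; the spread behind each p-value is that between these libraries and may be technical. The experiment number was a block only in an alternative: nothing says what it marks, and there are fewer than 3 pairs. Of the tested genes 468 were listed at 0 in at least 1 library, vinculin among them, so a listed 0 can be a failed estimate. Deposited bounds cover counting error only; their half-width was 1.57% to 2.12% of the value for Itgb1 and 8.04% to 14.0% for Itgb8.

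Named genes were the 9 integrin genes, up to 4 genes past the threshold by smallest p from each of the 4 gene lists around them, marker lists aside (or the 2 with the smallest p where none passed), the 3 genes with the most similar values to Itgb1 and to Itgb6 (among named genes above 0 in every library with a mean of at least 5 FPKM), and Itga6 and Cd44. Itgb4, Fn1, Tgfb1, Tgfb2, Ltbp1, Vcl, Acta2, Ppbp, Itga2b, Trp63, Cdh1 and Epcam were named outside that rule, after their values were seen. The members, lists and tests were chosen with earlier results of these data known. Promoter windows came from RefSeq (GRCm38.p6); 8 of the 9 genes matched. Alternatives covered the block, pseudocounts of 0.1 and 5, filters on low values, scaling, zeros, the choice of transcripts and each library left out.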

Additional observations from a re-analysis of the deposited data

How the results depend on the processing

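Of 101 changes of single integrin genes recomputed under an alternative, 99 were below 0. Both exceptions were Itga5, at 0.059 with median-of-ratios scaling and 0.16 without reporter positive replicate 1. The block, the filters on low values and leaving out zeros repeat the main change of a gene exactly, so those entries could not differ in sign. Itgb1 and Itgb8 also repeat it under every choice of transcripts. The count of 99 is therefore not a measure of robustness. None of the 7 passed except with the replicate block, where 1 did (Itgb1), and with the block and genes listed at 0 left out, where 5 did, Itgb8 among them. Those 2 fits called 1416 and 3322 genes, against 645 without either change. Leaving out the zeros alone called 1262 genes, no filter on low values 4, annotated transcripts alone 95 and the most abundant transcript 314; why these counts differ was not tested. With 1 library left out 3 to 191 genes passed (86 and 53 without reporter positive replicates 1 and 2, and 191 and 3 without reporter negative replicates 1 and 2) and 0 of the integrin genes, the lone library of a group being assumed to vary like the other group. The changes then ran from -0.74 to -0.39 for Itgb1, -0.98 to -0.55 for Itga2, -0.47 to 0.16 for Itga5, -0.93 to -0.23 for Itgav, -1.31 to -0.57 for Itgb5, -0.62 to -0.42 for Itgb6 and -1.01 to -0.24 for Itgb8. Median-of-ratios scaling called 473 genes higher and 210 lower, against 320 and 325. The deviations of same-numbered libraries correlated at 0.172. The Itgb1 share of the 5 β chains, 3.55 percentage points higher in reporter positive cells on average, was 0.93 points lower (-0.93) over annotated transcripts, within the spread of the reporter negative libraries. Annotated transcripts alone gave no value for Itga2, and Itgb6 then failed the minimum.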

Other observations

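Itgav was divided between annotated transcripts in experiment 1 and not in experiment 2. The 28-exon transcript ENSMUST00000111740, which lacks exons of 62 and 46 bases of the 30-exon ENSMUST00000028499, had 2.09 FPKM in the reporter positive library and 3.74 FPKM in the reporter negative library of experiment 1. It was listed at 0 in both libraries of experiment 2, so this form followed the experiment and not the reporter. Whether the assembly of each library sets it was not tested.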
